A study of Mus musculus with 4 samples.

Results

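The 10 genes described here encode proteins of the nuclear lamina and of the LINC complex, the linker of nucleoskeleton and cytoskeleton. They are the lamin genes *Lmna*, *Lmnb1* and *Lmnb2*, the SUN domain genes *Sun1* and *Sun2*, the nesprin genes *Syne1*, *Syne2* and *Syne3*, and 2 genes of other inner nuclear membrane proteins, *Emd* and *Lbr*. They were chosen by symbol from the 39179 genes counted in each library, with earlier results of these data known. RNA-seq of polyA RNA compared parental B16F1 control cells, a mouse melanoma line grown on rigid culture dishes, with tumor repopulating cells (TRCs), which are the B16F1 cells that grew into multicellular spheroids in 3D fibrin gels of 90 Pa stiffness and were isolated on day 5. Each group had 2 libraries, numbered 1 and 3. Both groups came from 1 cell line with no engineered allele. TRCs are the survivors of a gel in which most seeded cells die, and the gel was 3-dimensional as well as soft, so that selection of cells, dimension of the culture and stiffness cannot be told apart in this comparison.

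Lamins are intermediate filament proteins that form a meshwork under the inner nuclear membrane. A-type lamins come from *Lmna*, B-type lamins from *Lmnb1* and *Lmnb2*. SUN proteins span the inner nuclear membrane, bind lamins on the nuclear side and hold the KASH domain of nesprins in the space between both membranes, while nesprins reach from the outer membrane to actin, microtubule motors and intermediate filaments. Through this bridge, forces on the cytoskeleton reach the nucleus, and lamin A levels are known to be higher in stiff than in soft tissues.

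The libraries held 35948295 to 43511554 counts on genes. After a filter of at least 1 CPM (counts scaled to the library size) in at least 2 libraries, 11483 genes were tested. They included 9 of the 10 genes described here. The p-values measure the spread between the libraries of a group, and no source states for the sequenced libraries that they came from separate cultures. All libraries expressed the 8 melanocyte markers chosen, with summed levels of 16224 and 19418 CPM in control and of 24519 and 27316 CPM in TRCs. All 3 keratinocyte markers (*Krt5*, *Krt14*, *Trp63*) were at 0 in every library. Of 7 leukocyte markers, 5 were at 0 in every library, *Ptprc* among them, and the list summed to 0.120 to 0.855 CPM, mostly from *Lyz2*. Of 4 endothelial markers, *Cdh5* and *Kdr* were at 0 in every library, and the list summed to 0.0481 to 0.198 CPM. The 6 fibroblast markers summed to 9.83 and 11.4 CPM in control, mostly from *Col1a2*, and to 3.13 and 5.80 CPM in TRCs.

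Of the lamin and LINC genes, *Sun1* rose in TRCs and *Lmnb2* fell. In the edgeR exact test across all genes, these were the 2 of 9 genes called, that is with a false discovery rate (FDR, Benjamini-Hochberg) under 0.05, or 22.2%, where 15.9% of all genes tested passed. In each direction this was 1 of 9 genes, or 11.1%, against 8.81% of all genes called higher and 7.05% called lower in TRCs. The same 2 genes passed in edgeR's quasi-likelihood test, where 9.18% of all genes did, in this test with the replicate number as a block (6.84%) and in DESeq2 (17.7%). The groups did not overlap for 6 of the 9 genes, or 66.7%, against 60.6% of all genes tested. In 5 of the 9, or 55.6%, both TRC libraries lay below both controls, against 30.4% of all genes, and in 1, or 11.1%, both lay above, against 30.2%. An unadjusted p under 0.05 was reached by 3 of 9 genes, or 33.3%, against 28.0% of all genes. The shares called and without overlap in either direction were thus close to those of all genes, while the share with both TRC libraries lower was larger. With 9 genes, 1 gene moves such a share by 11.1 percentage points. Their log2 fold changes had a median of −0.30, against 0.0034 for all genes, with 7 genes lower and 2 higher in TRCs. In bulk libraries, fewer cells that express a gene and less of its RNA per cell cannot be told apart.

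**Figure D1:**
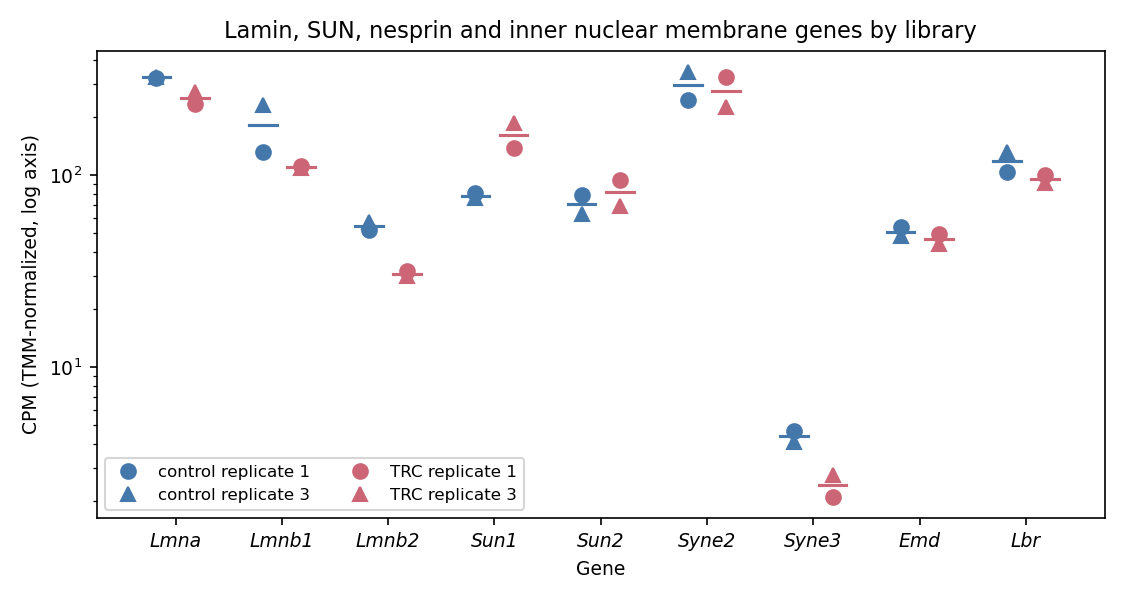
Levels of the 9 tested genes in each library, in CPM after TMM normalization on a log axis, with a point per library (circles replicate 1, triangles replicate 3, blue control, red TRC) and a bar at each group mean. *Sun1* lies at 75.8 and 80.7 CPM in control and at 137.7 and 186.1 CPM in TRCs, while *Lmnb2* lies at 51.7 and 56.8 CPM in control and at 29.7 and 31.6 CPM in TRCs.

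*Lmnb2* encodes lamin B2, a B-type lamin that stays attached to the membrane through its farnesyl tail. The gene (ENSMUSG00000062075) lies on the minus strand at chr10:80901203-80918245 of GRCm38. Its level was 51.7 CPM in control replicate 1, 56.8 in control replicate 3, 31.6 in TRC replicate 1 and 29.7 in TRC replicate 3. Both TRC libraries lay below both control libraries, and replicates of a group differed by less than the groups did. The mean was 54.2 ± 3.61 CPM in control and 30.6 ± 1.345 CPM in TRCs (SD, n = 2 each), a 1.77-fold lower level, with a log2 fold change of −0.82 (SE 0.22, edgeR exact test FDR = 0.00551). The call also passed in edgeR's quasi-likelihood test (FDR = 0.0303), with the replicate number as a block (FDR = 0.0498) and in DESeq2 (FDR = 0.00212). With 1 library left out, the log2 fold change stayed between −0.89 and −0.75, and the edgeR FDR was 0.0128 without control replicate 1, 0.0703 without control replicate 3, 0.0747 without TRC replicate 1 and 0.1247 without TRC replicate 3.

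*Lmnb1*, the gene of the other B-type lamin, had the same direction with less even replicates. The gene (ENSMUSG00000024590, plus strand, chr18:56707813-56753424) was at 132.6 CPM in control replicate 1, 231.2 in control replicate 3, 112.1 in TRC replicate 1 and 108.7 in TRC replicate 3. Both TRC libraries lay below both control libraries, yet control replicate 3 stood far above the other 3 libraries. The mean was 181.9 ± 69.7 CPM in control and 110.4 ± 2.43 CPM in TRCs (SD, n = 2 each). The log2 fold change of −0.72 (SE 0.28) did not pass the edgeR exact test (FDR = 0.0560), the quasi-likelihood test (FDR = 0.116) or DESeq2 (FDR = 0.0590). Its size rested on control replicate 3. Without that library the log2 fold change was −0.26 (edgeR FDR = 0.672), and without control replicate 1 it was −1.07 (edgeR FDR = 0.000989).

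*Lmna*, the gene of lamins A and C, did not pass the test. The gene (ENSMUSG00000028063, minus strand, chr3:88480147-88509956) was at 319.0 CPM in control replicate 1, 325.9 in control replicate 3, 233.6 in TRC replicate 1 and 271.3 in TRC replicate 3. Both TRC libraries were below both controls, with a mean of 322.5 ± 4.95 CPM in control and 252.5 ± 26.7 CPM in TRCs (SD, n = 2 each). The log2 fold change was −0.35 (SE 0.19, edgeR exact test FDR = 0.314), with a 95% interval from −0.73 to 0.03. This interval holds no change as well as a fall by 0.73 on the log2 scale. Lamins A and C arise from 1 gene by splicing, and counts per gene do not separate them.

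Ratios within a library do not depend on the scaling between libraries. *Lmna* to *Lmnb2*, in reads per kilobase of exon, was 4.53 in control replicate 1, 4.21 in control replicate 3, 5.43 in TRC replicate 1 and 6.71 in TRC replicate 3. Both TRC libraries lay above both controls, by a mean of 0.47 on the log2 scale, and the exact two-sided permutation test gave p = 0.333, the smallest value that 2 libraries against 2 allow. *Lmna* to *Lmnb1* was 1.22, 0.715, 1.06 and 1.27 in the same order, and *Lmnb1* to *Lmnb2* was 3.71, 5.89, 5.14 and 5.30. In both of these ratios the groups overlapped, with the control libraries the farther apart. Summed over the 3 lamin genes, RPKM (the CPM per kilobase of exon) came to 111.5 and 147.2 in control and to 85.2 and 90.1 in TRCs. Of this sum, *Lmnb2* made up 10.8 and 9.004% in control and 8.65 and 7.69% in TRCs.

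**Figure D2:**
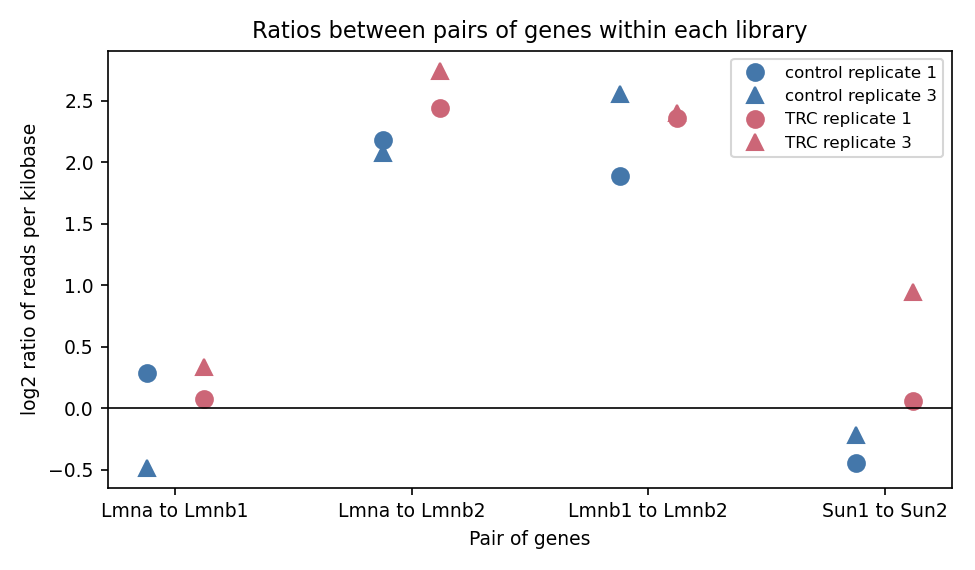
Log2 ratios of reads per kilobase between pairs of genes within each library, with a point per library and symbols as in the plot of levels. *Lmna* to *Lmnb2* and *Sun1* to *Sun2* are higher in both TRC libraries than in both control libraries, while the groups overlap for *Lmna* to *Lmnb1* and for *Lmnb1* to *Lmnb2*.

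*Sun1* encodes an inner nuclear membrane protein that anchors nesprins and binds prelamin A. The gene (ENSMUSG00000036817) lies on the plus strand at chr5:139200637-139249840. Its level was 80.7 CPM in control replicate 1, 75.8 in control replicate 3, 137.7 in TRC replicate 1 and 186.1 in TRC replicate 3. Both TRC libraries lay above both controls, and the gap between the groups was larger than the difference between the TRC libraries. The mean was 78.2 ± 3.43 CPM in control and 161.9 ± 34.3 CPM in TRCs (SD, n = 2 each). This was a 2.07-fold higher level, with a log2 fold change of 1.05 (SE 0.23, edgeR exact test FDR = 0.000384). The quasi-likelihood FDR was 0.0239, or 0.0398 with the replicate block, and that of DESeq2 was 0.000128. It was lost without TRC replicate 3, with a log2 fold change of 0.81 (edgeR FDR = 0.0581).

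*Sun2* encodes the other SUN protein found widely in somatic cells, which shares nesprin partners with SUN1. The gene (ENSMUSG00000042524, minus strand, chr15:79724070-79742536) was at 78.4 CPM in control replicate 1, 62.8 in control replicate 3, 94.3 in TRC replicate 1 and 68.7 in TRC replicate 3. The groups overlapped, as replicate 1 was the higher library in each. The log2 fold change was 0.21 (SE 0.25, edgeR exact test FDR = 0.636), with a 95% interval from −0.28 to 0.70. *Sun1* to *Sun2*, in reads per kilobase, was 0.734 in control replicate 1, 0.861 in control replicate 3, 1.04 in TRC replicate 1 and 1.93 in TRC replicate 3. Both TRC libraries lay above both controls, by a mean of 0.84 on the log2 scale (exact permutation p = 0.333, the smallest possible). Which of the 2 genes had the higher level in control depends on the length used, since with the longest coding transcript the ratio was 0.947, 1.11, 1.34 and 2.49 in the same order. Leaving out TRC replicate 3 reduced the difference to 0.39, and leaving out TRC replicate 1 raised it to 1.28.

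**Figure D3:**
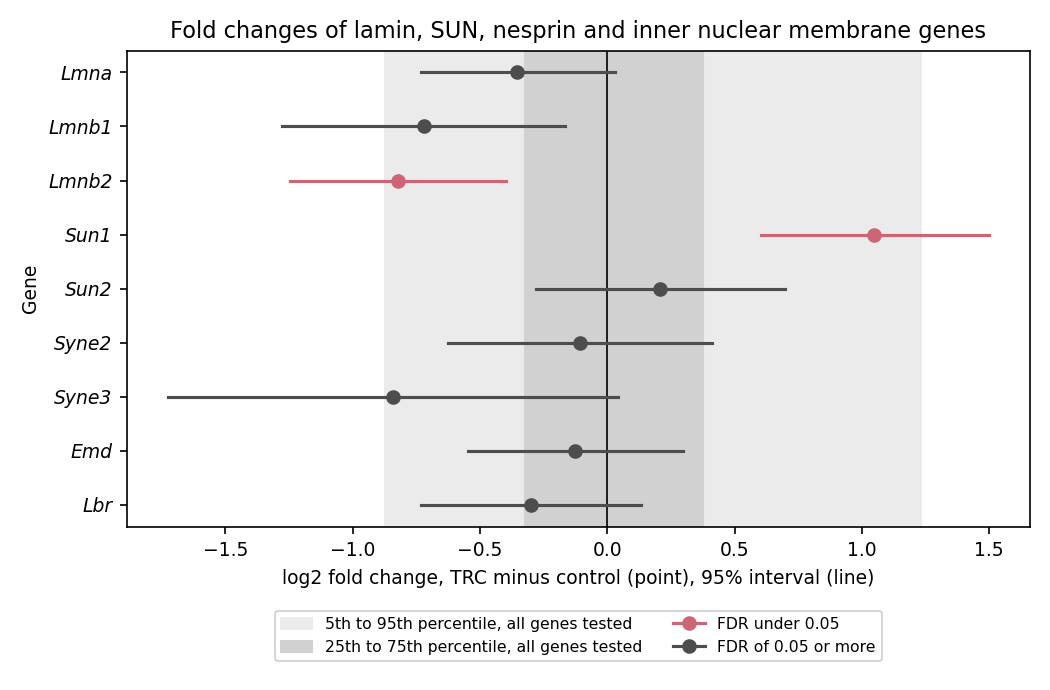
Log2 fold changes of the 9 tested genes, TRC minus control, with 95% intervals as lines, red for an FDR under 0.05 and grey otherwise. Shading marks the 25th to 75th and the 5th to 95th percentile of all 11483 genes tested, and *Sun1* at 1.05 and *Lmnb2* at −0.82 both lie between the inner and the outer limits, toward opposite sides.

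Nesprins carry the cytoskeletal side of the LINC complex, and none of those tested passed the test. *Syne2*, which encodes the giant actin-binding nesprin-2 (ENSMUSG00000063450, plus strand, chr12:75818134-76110926), was at 247.5 CPM in control replicate 1, 344.5 in control replicate 3, 323.9 in TRC replicate 1 and 225.1 in TRC replicate 3. The groups overlapped, with a log2 fold change of −0.11 (SE 0.26, edgeR exact test FDR = 0.840, 95% interval −0.63 to 0.41). *Syne3*, which encodes nesprin-3, the link to plectin and intermediate filaments (ENSMUSG00000054150, minus strand, chr12:104929933-105009809), was at 4.66 and 4.05 CPM in control and at 2.12 and 2.74 CPM in TRCs. Both TRC libraries were lower, yet these levels rest on 88 to 207 reads per library. The log2 fold change of −0.84 (SE 0.45) was as large as that of *Lmnb2* but had the widest error of the 9 genes and an edgeR FDR of 0.198. *Syne1*, the gene of nesprin-1, had 1 read in control replicate 1 and 0 in the other libraries under the identifier that the annotation gives it (ENSMUSG00000096054, minus strand, chr10:5020917-5551482), so it was not tested. The counts were made with an earlier annotation, in which reads of this gene may stand under another identifier, and its level was not analysed here.

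*Emd* encodes emerin, a LEM domain protein that binds lamins and the chromatin factor BAF. The gene (ENSMUSG00000001964, plus strand, chrX:74254687-74261548) was at 53.6 CPM in control replicate 1, 47.9 in control replicate 3, 49.2 in TRC replicate 1 and 43.8 in TRC replicate 3. The groups overlapped, and the log2 fold change was −0.13 (SE 0.22, edgeR exact test FDR = 0.774, 95% interval −0.55 to 0.30). *Emd* is the least certain of these counts by sequence, since *Gm14686* covers 13.6% of its exon bases on the same strand, and 11.9% of its 100-base stretches also occur in transcripts of other genes. *Lbr* encodes the lamin B receptor, which tethers heterochromatin and is also a sterol reductase of cholesterol synthesis. The gene (ENSMUSG00000004880, minus strand, chr1:181815335-181843046) was at 104.1 and 131.5 CPM in control and at 100.5 and 90.7 CPM in TRCs. Both TRC libraries were lower, but the gap between the groups was smaller than the difference between the replicates of either, with a log2 fold change of −0.30 (SE 0.22, edgeR exact test FDR = 0.414, 95% interval −0.73 to 0.13).

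Per length, the order of levels differed between the groups mainly at *Sun1*. In RPKM over all exons, control cells had *Lmnb1* at 61.4 and *Lmna* at 55.2, then *Lbr* at 24.7, *Emd* at 20.2, *Sun2* at 13.03, *Lmnb2* at 12.7, *Syne2* at 11.1, *Sun1* at 10.3 and *Syne3* at 0.785. Among neighbours in that order, *Lmnb1* and *Lmna* overlapped between libraries, as did *Sun2* and *Lmnb2*, *Lmnb2* and *Syne2*, and *Syne2* and *Sun1*. TRCs had *Lmna* at 43.2 RPKM and *Lmnb1* at 37.3, then *Sun1* at 21.3, *Lbr* at 20.1, *Emd* at 18.5, *Sun2* at 15.0, *Syne2* at 10.3, *Lmnb2* at 7.15 and *Syne3* at 0.438. There *Sun1*, *Lbr* and *Emd* overlapped with their neighbours, as did *Emd* and *Sun2*. *Sun1* thus moved from rank 8 to rank 3 and *Lmnb2* from rank 6 to rank 8. The order of *Lmna* and *Lmnb1* depends on the length used. With the longest coding transcript in place of all exons, *Lmna* led in both groups, at 102.2 RPKM in control and 80.0 RPKM in TRCs. *Sun1* then moved from rank 5 to rank 2, but overlapped between libraries with its neighbour *Sun2* in control and with *Lmnb1* in TRCs.

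By their profile over the 4 libraries (log2 of CPM plus 0.5, centred on the gene's mean), *Sun1* was the farthest gene from each of the other tested genes except *Sun2*, whose farthest was *Lmnb1*. The nearest gene to *Lmnb2* among the set was *Syne3*, at a Euclidean distance of 0.366, and *Lmnb1* was closest to *Lmnb2*, at 0.495. Among all other genes with a symbol, the profiles most like that of *Lmnb2* were those of *Polq* (a DNA polymerase of end joining, distance 0.0294), *Cep63* (a centrosomal protein, 0.0335) and *Nol10* (a nucleolar protein, 0.0348). Most like that of *Sun1* were *Foxo3*, a forkhead transcription factor, at 0.0478, *Dgat2*, an enzyme of triglyceride synthesis, at 0.0853 and *Dkk3*, a secreted protein of the Dickkopf family, at 0.0875. *Foxo3* was at 49.3 and 44.5 CPM in control and at 81.0 and 110.1 CPM in TRCs. Profiles over 4 libraries in 2 groups are easily alike. Of 11389 genes compared, 374 lay within 0.25 of *Lmnb2* and 43 within 0.25 of *Sun1*.

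Other genes of the nuclear envelope were read from lists. Of 17 tested genes of other inner membrane and lamina proteins, 0 passed the edgeR exact test, where 15.9% of all genes did. In this test 3 of the 17 had an unadjusted p under 0.05, all lower. That is a smaller share than the 28.0% of all genes in either direction. The quasi-likelihood test passed 0 of the 17 (9.18% of all genes) and DESeq2 passed 1 (17.7% of all genes). The median log2 fold change of the 17 was −0.15. The 3 were *Tor1aip1*, *Banf1* and *Tmpo*, named here after their values were seen, with log2 fold changes of −0.60, −0.53 and −0.45 (edgeR FDR = 0.0523, 0.129 and 0.168). None of the 5 genes that process lamin precursors passed in edgeR or DESeq2, nor did any have an unadjusted p under 0.05 (0 of 5, median −0.21). The same held for the 3 heterochromatin protein HP1 genes (0 of 3, median −0.23). Of 6 further SUN and KASH genes, *Spag4* was the 1 gene expressed enough to be tested, at 1.55 and 0.737 CPM in control and 1.06 and 0.601 CPM in TRCs (edgeR FDR = 0.659).

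Nuclear pore genes encode the channels through the envelope. Of 29 tested, 10 fell in the edgeR exact test, or 34.5%, against 7.05% of all genes called lower, and 0 rose. The log2 fold change was negative for 29 of 29 under every scaling tried, with a median of −0.52 against 0.0034 for all genes. *Nup43*, of the outer ring of the pore, was at 40.0 and 38.8 CPM in control and at 20.2 and 20.5 CPM in TRCs, for a log2 fold change of −0.95 (SE 0.22, edgeR FDR = 0.00261). *Nup188*, of the inner ring, changed by −0.79 (SE 0.19, FDR = 0.00660) and *Ndc1*, a membrane anchor of the pore, by −0.78 (SE 0.21, FDR = 0.00732). The number called depended on the test and on single libraries. It was 6 in the quasi-likelihood test, 3 when this test had the replicate block, 12 in DESeq2, 13 without control replicate 1, 3 without control replicate 3 (where 26 of 29 were lower), 0 without TRC replicate 1 and 1 without TRC replicate 3.

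Of 23 cell cycle genes tested, mainly of replication and mitosis, 8 fell (34.8%, against 7.05% of all genes called lower) and 0 rose. In all, 21 had a negative and 2 a positive log2 fold change, with a median of −0.61. *Mcm3*, a subunit of the replicative helicase, was at 254.4 CPM in control replicate 1, 436.9 in control replicate 3, 162.3 in TRC replicate 1 and 170.2 in TRC replicate 3 (log2 fold change −1.06, SE 0.28, edgeR FDR = 0.00227). *Tyms*, which makes thymidylate, changed by −1.01 (SE 0.28, FDR = 0.00236) and *Mcm4*, of the same helicase, by −0.97 (SE 0.28, FDR = 0.00504). All 23 genes were higher in control replicate 3 than in control replicate 1, with a median log2 difference of 0.50. Of the 9 lamin and LINC genes, 5, or 55.6%, were higher in control replicate 3, namely *Lmna*, *Lmnb1*, *Lmnb2*, *Syne2* and *Lbr*. *Sun1*, *Sun2*, *Syne3* and *Emd* were lower there. For *Lmna* the log2 difference, control replicate 1 minus 3, was only −0.03. The share of all genes higher in control replicate 3 was not counted. The count called was 2 in the quasi-likelihood test, with or without the replicate block, 10 in DESeq2, 12 without control replicate 1, 0 without control replicate 3, 0 without TRC replicate 1 and 1 without TRC replicate 3. What part cell cycle differences have in the *Lmnb1* and *Lmnb2* levels was not tested.

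**Figure D4:**
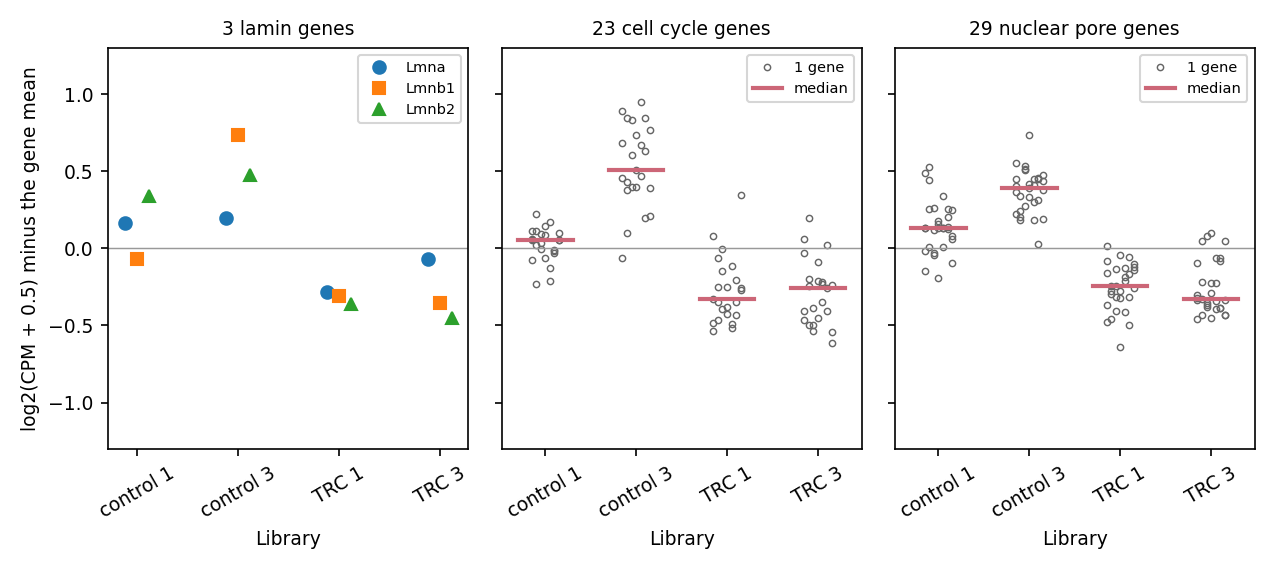
Levels in each library for the 3 lamin genes, 23 cell cycle genes and 29 nuclear pore genes, as log2(CPM + 0.5) minus the gene's mean over the 4 libraries, with red bars at the median of a list. All 3 lamin genes, 20 of the 23 cell cycle genes and 24 of the 29 nuclear pore genes are highest in control replicate 3. The share of all genes highest in that library was not counted. *Lmna* and *Lmnb2* differ less between the control libraries than *Lmnb1*. Both TRC libraries lie below both controls for each of the 3 lamin genes, as for 30.4% of all genes tested.

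On the cytoskeletal side, 1 of 13 genes of nesprin partners fell and 0 rose, a share of 7.7% beside 7.05% of all genes called lower. It was *Kif5b*, the heavy chain of a kinesin-1 motor that moves nuclei along microtubules through nesprins, at 777.5 and 979.5 CPM in control and 425.5 and 469.2 CPM in TRCs (log2 fold change −0.97, SE 0.21, edgeR FDR = 0.000961). Both TRC libraries lay below both controls, and the call was lost without control replicate 3 or TRC replicate 1. The median of the 13 was 0.02. Of 9 genes of nuclear envelope sealing, 1 rose, or 11.1% beside 8.81% of all genes. Both shares were near those of all genes. This was *Chmp2a*, an ESCRT-III subunit, at 58.0 and 46.2 CPM in control and 86.0 and 100.7 CPM in TRCs (log2 fold change 0.84, SE 0.23, edgeR FDR = 0.00453), which did not pass with the replicate block (FDR = 0.0581), nor without control replicate 3 or TRC replicate 3.

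Late sterol synthesis is the pathway in which the LBR protein also acts. Of 8 of its other genes tested, 4 rose (50%, against 8.81% of all genes called higher) and 0 fell, with a median log2 fold change of 0.87. *Tm7sf2* encodes the enzyme with the same sterol reductase activity as LBR. It was at 5.78 and 3.68 CPM in control and at 20.3 and 16.1 CPM in TRCs, for a log2 fold change of 1.94 (SE 0.34, edgeR FDR = 3.27e-05). *Msmo1* (1.32), *Nsdhl* (1.10) and *Dhcr7* (0.95), further enzymes of the pathway, were the others called, with the log2 fold change in brackets. In all, 7 of the 8 had a positive and 1 a negative log2 fold change. The negative value was that of *Ebp*, named after its value was seen, at −0.17 (edgeR FDR = 0.692). The other genes that did not pass were higher in TRCs. A difference between these genes and *Lbr* was not tested. The number called was also 4 in the quasi-likelihood test, with or without the block, and in DESeq2. It was 3 without control replicate 1, 7 without control replicate 3, 4 without TRC replicate 1 and 2 without TRC replicate 3.

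**Figure D5:**
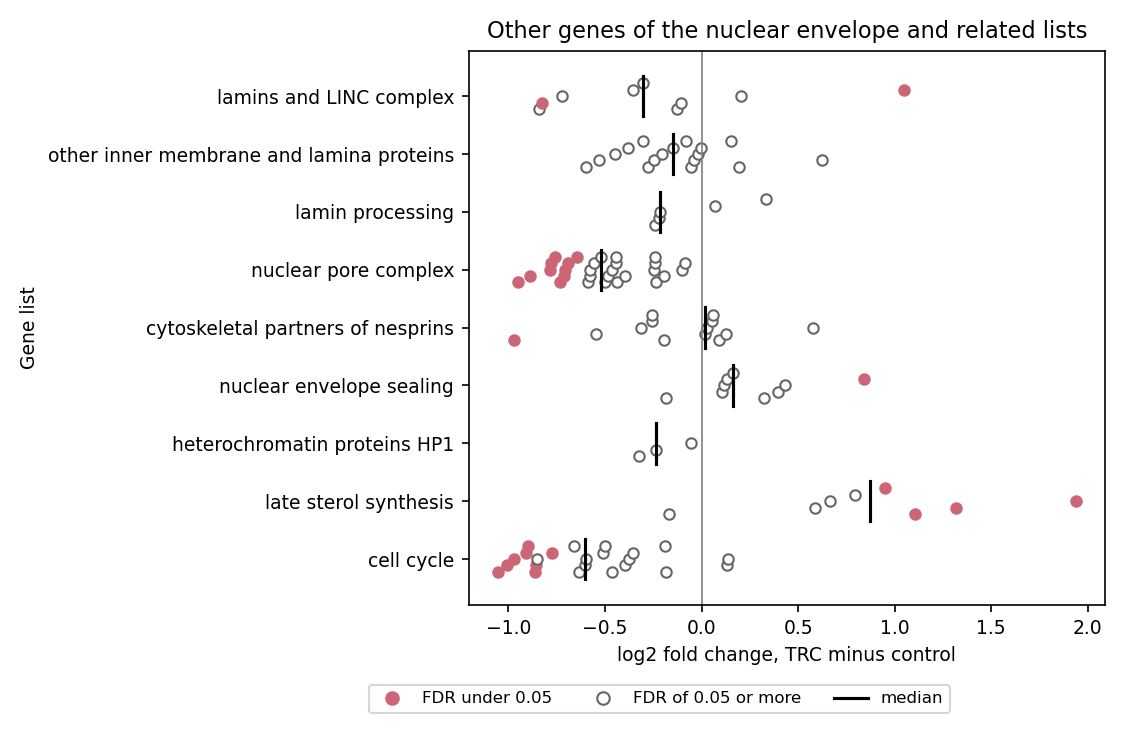
Log2 fold changes, TRC minus control, of each tested gene in the lamin and LINC set and in 8 related lists, filled red for an FDR under 0.05, with a black bar at each list's median. The nuclear pore genes all lie below 0 with a median of −0.52, the cell cycle genes have a median of −0.61 and the late sterol genes one of 0.87, while the lamin and LINC genes spread from −0.84 to 1.05.

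Among the marker lists, *Dct*, a melanin synthesis gene, was the 1 of 8 melanocyte genes called, or 12.5% beside 8.81% of all genes called higher. It was at 5694 and 4334 CPM in control and 11154 and 10027 CPM in TRCs (log2 fold change 1.08, SE 0.21, edgeR FDR = 0.000307). *Col1a2* was the 1 of 3 tested fibroblast markers called, or 33.3% beside 7.05% of all genes called lower. It was at 6.70 and 7.79 CPM in control and 1.52 and 1.01 CPM in TRCs (log2 fold change −2.52, SE 0.44, edgeR FDR = 4.15e-06). Neither *Col1a1* (−0.38, edgeR FDR = 0.768) nor *Pdgfra* (0.13, edgeR FDR = 0.915) passed. The untested *Col3a1*, *Dcn* and *Lum* were at 0.144 CPM or less in every library. *Dct* did not pass the quasi-likelihood test (FDR = 0.0704), while *Col1a2* did (FDR = 0.0160). The part of the marker genes' differences in those of the lamin and LINC genes was not tested.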

How the data were processed

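The series holds 4 RNA-seq libraries, 2 per group (B16F1 control and TRC). The authors made stranded single-end libraries, and per their notes and methods used CASAVA 1.8.2, Trimmomatic 0.35, TopHat2 2.1.0 with Bowtie2 2.2.6 and SAMtools 1.3 on GRCm38, and htseq-count on Ensembl genes. The overlap mode and strand setting are not given in the sources used here. The deposited values are raw counts per gene and library, not normalized. Rows that name no gene were left out. Alignments that were not unique made up 15.2 to 25.2% of the alignments listed, those on no gene 2.95 to 4.25% and ambiguous ones 0.825 to 0.955%.

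Genes with at least 1 CPM in at least 2 libraries were kept (11483). Following the study's methods, the exact test of edgeR 4.0.16 (R 4.3.3) was used with TMM factors (0.957 to 1.04), tagwise dispersions shrunk to a common one, a prior count of 0.125 and Benjamini-Hochberg adjustment over all genes. Standard errors and 95% intervals used DESeq2 1.42.0. CPM is counts over the TMM-scaled library size, and RPKM divides it by the exon length in GENCODE M21 (GRCm38), where 37607 of 39179 identifiers were found. Of 153 listed symbols, 152 had an identifier in the files. A gene of late sterol synthesis is not reported here. A count of 0 allows 3 reads, or 0.0675 to 0.0850 CPM, for counting error only. The biological coefficient of variation was 21.2%. The genes, lists and tests were chosen with earlier results of these data known. Named genes were all 10 lamin and LINC genes, from each list up to 3 called genes with the smallest FDR (every one where 5 or fewer were called), and the 3 nearest profiles of each called lamin or LINC gene. Alternatives were other filters, scalings and tests, a replicate block, and each library left out. The scripts were tested on simulated data. No promoter or protein sequence was used here.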

Additional observations from a re-analysis of the deposited data

Results flagged for a closer look

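The share of alignments listed as not unique, which enter no gene count, was higher in both TRC libraries than in both controls. It was 18.31% in TRC replicate 1 and 25.22% in TRC replicate 3, against 15.2% in control replicate 1 and 17.09% in control replicate 3. Of the lamin and LINC genes, only *Emd* had 100-base stretches shared with other genes (11.9%), and the other 9 had 0% by this measure. The part of such alignments in the *Emd* level was not tested.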

How the results depend on the processing

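Direction and call held for *Sun1* and *Lmnb2* under the 3 other filters, both other scalings, the quasi-likelihood test, the replicate block and DESeq2. With library size as the only scaling, 2 lamin or LINC genes were called lower, as *Lmnb1* passed (−0.74, edgeR FDR = 0.0407). With 1 library left out, 0 to 2 were called lower and 0 to 1 higher. The log2 fold change then ranged from −0.89 to −0.75 for *Lmnb2*, from 0.81 to 1.23 for *Sun1* and from −1.07 to −0.26 for *Lmnb1*. *Sun2* ranged from −0.056 (reversed, without TRC replicate 1) to 0.41. *Syne2* ranged from −0.41 to 0.15, and turned to 0.15 without control replicate 3 and to 0.12 without TRC replicate 3. Leaving out a library leaves 1 in its group, which is then assumed to vary like the other group.

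Over all genes, 1012 were called higher and 810 lower. The quasi-likelihood test called 567 and 487, and with the replicate block 477 and 308. With 1 library left out, 500 to 1078 were called higher and 269 to 854 lower. The correlation of deviations between libraries of the same number was 0.027. This value was taken over all genes tested together and does not describe single genes. It cannot tell whether libraries of the same number were made together. The block changed no call among the lamin and LINC genes. In an alternative added after seeing the data, the length of the longest coding transcript moved the mean log2 ratio of *Lmna* to *Lmnb1* from −0.10 to 0.73 in control and from 0.21 to 1.04 in TRCs. The cause of these shifts was not tested, beyond the shorter length itself in the last.

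The read count limits *Syne3*, and the 2 libraries per group limit every gene. A gene that did not pass is not shown to be equal between groups. The intervals of *Lmna*, *Lmnb1*, *Sun2*, *Syne2*, *Syne3*, *Emd* and *Lbr* each allow a log2 change of over 0.4. That of *Lmnb1*, from −1.28 to −0.16 and not adjusted for the number of genes, lay wholly on the lower side. The others included no change.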
